A study of Homo sapiens with 2 samples.

Results

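The genes described here are 10 epithelial genes, chosen by symbol: the keratins KRT7, KRT8, KRT18 and KRT19, the tight junction genes CLDN3, CLDN4, OCLN, TJP1 and F11R, and the transcription factor gene SPDEF. All 10 were matched to the 63677 Ensembl gene IDs of the deposited tables. RNA sequencing was done on MDA-MB-231, an established human breast cancer cell line with a mesenchymal-like, hormone-receptor-negative character. Each group has 1 library: control cells, and cells exposed to CCE, an extract of the plant Carpesium cernuum. The labels attach the same protocol text, 1 µg/mL for 24 h, to both samples, and do not say what was given to the control. The comparison asks which transcripts differ after exposure.

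Keratins are the intermediate filament proteins of epithelial cells. A filament needs a type II keratin such as KRT7 or KRT8 paired with a type I keratin such as KRT18 or KRT19, and these 4 are the keratins of simple and glandular epithelium, with KRT8 and KRT18 the usual pair. Tight junctions seal the space between neighbouring epithelial cells: claudins and occludin span the membrane, the immunoglobulin-type adhesion molecule JAM-A (the product of F11R) spans it beside them, and ZO-1 (the product of TJP1) ties them to actin. Mesenchymal-like breast cancer lines are known for low claudin and E-cadherin expression and abundant vimentin.

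Depth on genes was 5633569 counts for control and 34884501 for CCE, so 1 count was worth 0.180 CPM (TMM-scaled counts per 1000000) for control and 0.0283 CPM for CCE. Cell identity was checked with marker lists. The summed level of 10 markers of mesenchymal-like lines was 7818 CPM for control and 4722 CPM with CCE, of which VIM held 3739 and 1801 CPM. Of the 9 markers averaging 1 CPM or more, 7 were lower with CCE and 2 higher. Of all genes at that level 46.1% were lower. The 10 luminal markers summed to 102.5 and 87.7 CPM, of which XBP1 held 89.9 and 78.7 CPM. ESR1 and FOXA1 had 0 counts in both libraries. The 10 basal markers summed to 45.0 and 23.9 CPM, with KRT5, KRT14 and TP63 at 0 in both and MYLK alone at 42.1 and 21.8 CPM. Blood and endothelial markers (9 matched) summed to 8.99 and 9.51 CPM, of which HBB held 7.37 and 8.49 CPM. CDH1, the gene of E-cadherin, had 0 counts in the control library and 1 count with CCE, where 3 counts, the limit that a count of 0 allows, are worth 0.540 CPM in the control library. The lower sum of the mesenchymal-like markers stands beside the lower keratins described next, and its part in them was not tested.

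All 4 keratins were lower in the CCE library, by 1.22 to 1.79 times. SPDEF was 4.20 times lower by counts, which was the largest difference among the 10 genes. By counts the tight junction genes went in different directions: CLDN3 was 2.50 times lower, CLDN4 1.34 times lower and OCLN 2.08-fold higher, while TJP1 was nearly equal. With 1 library per group no test was run, and each ratio carries an exact 95% Clopper-Pearson counting interval, which leaves out any spread between cultures. Bulk RNA cannot tell fewer cells with a transcript from less of that transcript per cell.

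A gene was called when it differed at least 2-fold and its counting interval excluded a ratio of 1, with genes averaging 1 CPM or more taken as measured, which all 10 genes did. Of the 10 genes 1 was called higher and 2 lower. Over all 14424 measured genes 4.36% were called higher and 4.92% lower, 9.28% in all. The median log2 ratio of the 10 genes was -0.43, beside 0.05 over all measured genes. At a 1.5-fold threshold 1 gene was called higher and 4 lower, where 12.1% and 11.3% of measured genes were.

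**Figure D1:**
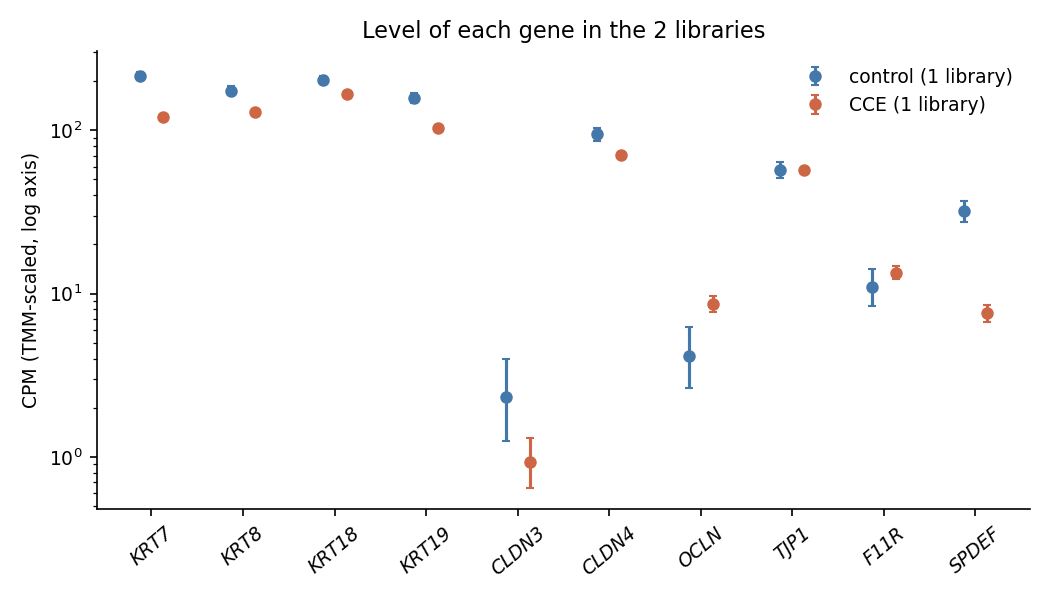
Level of each of the 10 genes in CPM on a log axis, with the control library in blue and the CCE library in orange; bars are exact 95% Poisson counting intervals. The 4 keratins sit between 103 and 216 CPM and are lower in the CCE library, OCLN is higher there, and SPDEF is at 31.8 and 7.58 CPM.

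The promoters of the 3 called genes are shown because these genes carry the largest differences. They are RefSeq windows on GRCh38.p14, 250 bases before to 50 bases after an annotated start, read in the direction of transcription, and RefSeq windows matched 6 of the 10 symbols. Capitals mark CAGGTG or its reverse complement CACCTG, the E-box form recognised by SNAI and ZEB repressors of epithelial genes. SPDEF is at chr6:34556280-34556579 on the minus strand, OCLN at chr5:69492297-69492596 and, for a second start, chr5:69492540-69492839, both on the plus strand, and CLDN3 at chr7:73770221-73770520 on the minus strand.
SPDEF: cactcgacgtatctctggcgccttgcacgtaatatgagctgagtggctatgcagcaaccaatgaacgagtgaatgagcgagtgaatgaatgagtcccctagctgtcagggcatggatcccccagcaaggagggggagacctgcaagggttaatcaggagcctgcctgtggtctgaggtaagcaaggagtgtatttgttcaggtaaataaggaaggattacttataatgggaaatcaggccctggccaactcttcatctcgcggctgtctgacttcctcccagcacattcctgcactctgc
OCLN, first start: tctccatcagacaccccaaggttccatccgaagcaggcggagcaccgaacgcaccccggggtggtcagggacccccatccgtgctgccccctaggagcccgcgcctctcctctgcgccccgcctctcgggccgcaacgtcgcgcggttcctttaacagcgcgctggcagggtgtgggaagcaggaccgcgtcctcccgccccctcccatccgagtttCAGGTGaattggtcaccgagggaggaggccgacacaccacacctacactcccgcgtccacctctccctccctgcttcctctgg
OCLN, second start: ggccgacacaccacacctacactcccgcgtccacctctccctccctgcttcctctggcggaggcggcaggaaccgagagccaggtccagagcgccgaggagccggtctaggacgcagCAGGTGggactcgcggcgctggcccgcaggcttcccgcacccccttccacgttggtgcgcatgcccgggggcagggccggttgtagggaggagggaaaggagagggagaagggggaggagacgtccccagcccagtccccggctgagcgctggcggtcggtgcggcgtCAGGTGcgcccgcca
CLDN3: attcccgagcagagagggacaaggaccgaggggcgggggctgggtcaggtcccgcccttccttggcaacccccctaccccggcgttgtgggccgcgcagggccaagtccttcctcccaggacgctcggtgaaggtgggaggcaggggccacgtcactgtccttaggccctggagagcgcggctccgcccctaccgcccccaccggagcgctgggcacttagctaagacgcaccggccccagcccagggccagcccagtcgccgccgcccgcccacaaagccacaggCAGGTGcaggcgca
The OCLN windows held 1 and 2 matches and the CLDN3 window held 1, while the SPDEF window held 0. Of 35116 RefSeq promoter windows of this length 20.6% held a match. The motif stood in the promoter of the gene that was higher and of 1 of the 2 that were lower. Over the 6 genes with windows, 4 of 10 windows held a match, with the overlapping OCLN windows counted separately. The first TJP1 window held 1 match, and the CLDN4 and KRT8 windows held 0. Whether these genes differ from the background was not tested. A match is a run of letters and not a shown binding site.

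KRT7, a type II keratin of glandular ducts, lies on chromosome 12 from 52626304 to 52645970 (GRCh37, as for all gene positions here). It had 1203 counts for control and 4264 for CCE, which is 216 and 121 CPM. The CCE library was lower by 1.79 times (log2 ratio -0.84, interval -0.94 to -0.75). By counts this was the largest difference among the 4 keratins, at percentile 7.39 of the ratios of measured genes. On the log2(FPKM + 1) scale KRT7 had -0.42 and KRT19, at -0.72, was the lowest of the 4.

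KRT7-AS, a long noncoding RNA gene on the opposite strand, shares 282 exonic bases with KRT7. It had 398 and 1093 counts, a log2 ratio of -1.21 (-1.38 to -1.04), so it was lower along with KRT7. No source used here gives the strand setting of the counting, so reads of the pair within these shared bases cannot be told apart. Their summed counts gave a log2 ratio of -0.93 (-1.01 to -0.84).

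KRT8, the most widespread type II keratin of simple epithelium, lies on chromosome 12 from 53290971 to 53343738. It had 972 and 4546 counts, or 175 and 129 CPM, and the CCE library was lower by 1.36 times (log2 ratio -0.44, -0.54 to -0.34). Its type I partner KRT18, next to it on chromosome 12 from 53342655 to 53346690, had 1135 and 5928 counts, or 204 and 168 CPM. KRT18 was 1.22 times lower (log2 ratio -0.28, -0.38 to -0.19), the smallest difference of the 4 keratins. The intervals of the partners overlapped. The 2 genes share 525 exonic bases on opposite strands, and no source used here says how reads there were assigned.

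KRT19, a type I keratin that lacks the tail domain of other keratins, lies on chromosome 17 from 39679869 to 39684560. It had 875 and 3641 counts, or 157 and 103 CPM, and was 1.53 times lower in the CCE library (log2 ratio -0.61, -0.72 to -0.50). Its interval overlapped that of KRT8 and not that of KRT7 or KRT18. The 4 keratins together went from 753 CPM for control to 520.0 CPM for CCE, a log2 ratio of -0.53 (-0.58 to -0.48). All 4 intervals lay below a ratio of 1; so did those of 32.0% of the 7977 measured genes with at least 100 control counts, a depth all 4 keratins had.

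**Figure D2:**
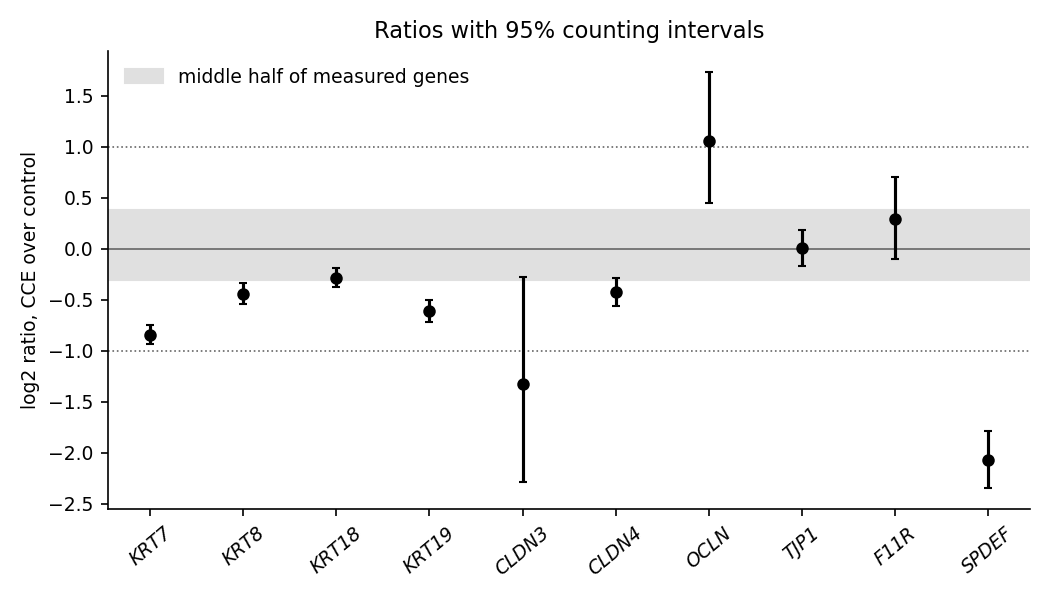
Log2 ratio of CCE over control for each gene, with its 95% counting interval; the grey band is the interquartile range of all measured genes (-0.31 to 0.38), and dotted lines mark 2-fold. KRT7, KRT8, KRT19, CLDN3, CLDN4 and SPDEF lie below the band, OCLN lies above it, and KRT18, TJP1 and F11R lie within it.

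By counts, the proportions of the keratins differed between the libraries beyond counting error. Ratios between genes within a library do not depend on library scaling, and their intervals are conditional exact 95% intervals of the odds ratio. For each KRT18 count there were 1.06 KRT7 counts for control and 0.719 for CCE, 0.679 times as many (0.619 to 0.743). For KRT19 against KRT18 the factor was 0.797 (0.722 to 0.879), and for KRT8 against KRT18 it was 0.895 (0.814 to 0.985). For KRT19 against KRT8 it was 0.890 (0.803 to 0.986). Both KRT8 intervals ended just under 1. Summed over the types, KRT7 and KRT8 gave 1.08 counts for each count of KRT18 and KRT19 for control and 0.921 for CCE, a factor of 0.851 (0.795 to 0.910). For KRT7 against KRT19 the factor was 0.852 (0.772 to 0.940). By the authors' FPKM that pair went the other way. On the log2(FPKM + 1) scale KRT19 had -0.72, KRT7 -0.42, KRT8 -0.36 and KRT18 -0.28. The intervals leave out this gap between counts and FPKM, so the lower share of the type II keratins is shown by counts only.

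As shares of the counts of the 4 keratins, KRT7 held 28.7% in the control (27.4 to 30.1%, exact binomial) and 23.2% in the CCE library (22.6 to 23.8%). KRT18 held 27.1% (25.8 to 28.5%) and 32.3% (31.6 to 32.9%). KRT8 held 23.2% and 24.7%, and KRT19 20.9% and 19.8%.

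**Figure D3:**
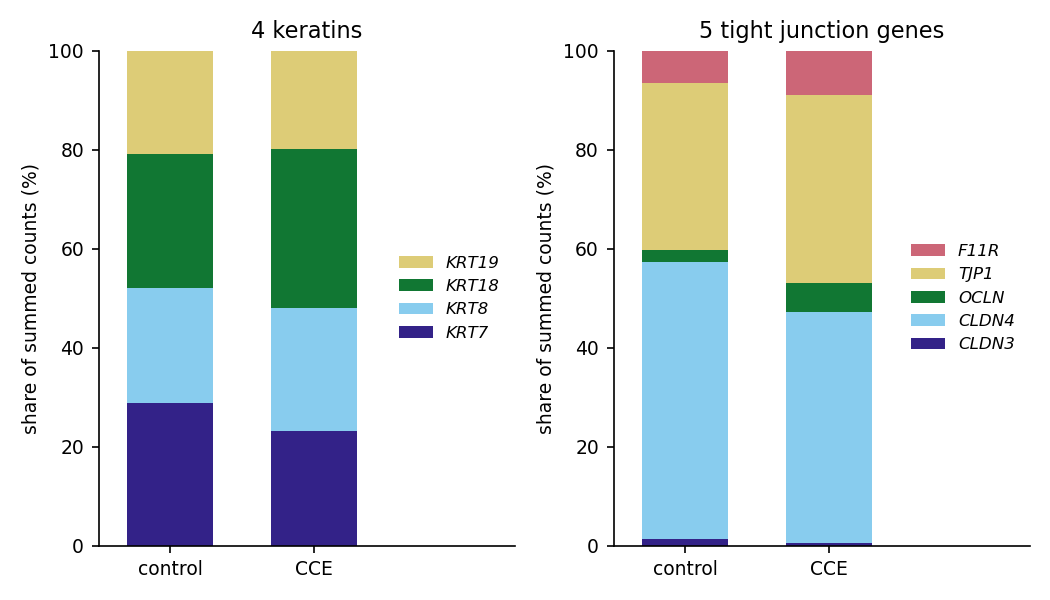
Share of each gene in the summed counts of the 4 keratins (left) and of the 5 tight junction genes (right), in percent, for the control and the CCE library. KRT7 takes 28.7% for control and 23.2% for CCE and KRT18 27.1% and 32.3%; CLDN4 takes 55.9% and 46.7% and OCLN 2.45% and 5.71%.

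Keratin genes have many processed pseudogenes, which can take reads from their parents. The annotation holds 51 for KRT8, of which 11 had any count, and 67 for KRT18, of which 26 had any. The KRT8 pseudogenes summed to 19 and 218 counts, 1.95% and 4.80% of the count of KRT8 itself, and the KRT18 pseudogenes to 6 and 89 counts. Both sums were higher in the CCE library, with log2 ratios of 0.85 (0.17 to 1.61) and 1.22 (0.04 to 2.71), opposite to the parents. KRT8P12 on chromosome 3 alone had 11 and 135 counts. Adding the pseudogenes to the parents gave -0.40 for KRT8 and -0.27 for KRT18.

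CLDN4, a sealing claudin of epithelia, lies on chromosome 7 from 73213872 to 73247020 and had 525 and 2485 counts, or 94.4 and 70.3 CPM. It was 1.34 times lower in the CCE library (log2 ratio -0.43, -0.56 to -0.29), but higher there by the authors' FPKM, in which the control is listed at 0. CLDN3, a related claudin whose gene lies near it on chromosome 7 from 73183327 to 73184600, had only 13 and 33 counts, or 2.34 and 0.934 CPM. It was 2.50 times lower (log2 ratio -1.32, -2.29 to -0.27), and the width of that interval comes from its 13 control counts. CLDN3 was the only one of the 10 genes with a level under 1 CPM in a library. It counted as measured only through the control library, where it was higher. The count of CLDN3 per CLDN4 count was 0.0248 and 0.0133, a factor of 0.536 whose interval (0.273 to 1.12) included 1, so a difference between the claudins was not detectable at this depth.

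OCLN, the gene of occludin, lies on chromosome 5 from 68788119 to 68853931. It had 23 counts for control and 304 for CCE, or 4.14 and 8.60 CPM, and was 2.08-fold higher (log2 ratio 1.06, 0.44 to 1.74). The lower bound of 1.36-fold lies under the 2-fold threshold, and by the authors' FPKM OCLN was lower in the CCE library. OCLN has 1 annotated pseudogene copy, with 1 and 5 counts, and with it added the log2 ratio was 1.02. For each TJP1 count there were 0.0723 OCLN counts for control and 0.150 for CCE, a factor of 2.07 (1.33 to 3.38).

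TJP1, which encodes the scaffold protein ZO-1, lies on chromosome 15 from 29991571 to 30261118. It had 318 and 2026 counts, or 57.2 and 57.3 CPM, a log2 ratio of 0.00 (-0.17 to 0.18), so differences beyond 1.13-fold in either direction lie outside its counting interval. Its sign changed with the library scaling, which moved it between -0.04 and 0.04. By the authors' FPKM (4.66 and 8.03) TJP1 was higher with CCE, with log2 ratios of 0.67 and 0.77 at pseudocounts of 1 and 0.1.

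F11R, on chromosome 1 from 160965001 to 160991133, had 61 and 474 counts, or 10.97 and 13.4 CPM. The log2 ratio was 0.29 with an interval (-0.10 to 0.70) that included 0, and by the authors' FPKM F11R was lower with CCE. F11R shares 1853 exonic bases with a second annotated gene on its strand, ENSG00000270149, which was listed at 0 counts in both libraries. No source used here says how reads in shared exons were assigned, so the count of F11R is uncertain. The 5 tight junction genes together had 169 and 151 CPM, a log2 ratio of -0.17 (-0.27 to -0.07).

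SPDEF encodes an ETS-family transcription factor of secretory and luminal epithelium. It lies on chromosome 6 from 34505579 to 34524110 and had 177 counts in the control but only 268 in the CCE library, which held 6.19 times as many counts on genes. The levels were 31.8 and 7.58 CPM, 4.20 times lower (log2 ratio -2.07, -2.35 to -1.79). By the authors' FPKM the log2 ratio was smaller, -1.19 with a pseudocount of 1 and -1.39 with 0.1. The ratio from counts lay at percentile 0.513 of measured genes, and its interval overlapped that of CLDN3 and of no other gene among the 10. SPDEF shares no exonic base with another annotated gene.

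Levels of different genes were compared as CPM per kilobase of merged exon length. In the control library the order ran from KRT19 (67.4) and KRT18 (66.5), whose counting intervals overlapped, to KRT7 (54.1), KRT8 (25.4), CLDN4 (20.1) and SPDEF (16.6), the intervals of the last pair overlapping. TJP1 (5.05), F11R (2.17), CLDN3 (1.84) and OCLN (0.367) followed, with overlap between F11R and CLDN3. In the CCE library the order was KRT18 (54.7), KRT19 (44.1), KRT7 (30.2), KRT8 (18.7), CLDN4 (15.0), TJP1 (5.07), SPDEF (3.96), F11R (2.65), OCLN (0.764) and CLDN3 (0.733), with overlap only between OCLN and CLDN3. SPDEF stood above TJP1 in the control library and below it in the CCE library. By the length of the canonical transcript KRT18 was highest in both libraries, and KRT7 (74.2), KRT19 (74.1) and KRT8 (72.1) lay close together in the CCE library. OCLN (1.39) lay above CLDN3 (0.733) there, as by merged length (0.764 and 0.733), but with a wider gap. The order among KRT7, KRT18 and KRT19 thus depends on the length used, while KRT8 and OCLN kept their places in both libraries.

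The other keratins were mostly silent. Of 24 other type II keratins 18 had 0 counts in both libraries and 3 were measured, all with intervals below a ratio of 1. KRT81, a hair-type keratin that breast cancer lines can express, had 922 and 2398 counts (log2 ratio -1.29, -1.40 to -1.18), KRT86 26 and 58 (-1.51, -2.20 to -0.78) and KRT80 368 and 1944 (-0.27, -0.43 to -0.10). KRT81 and KRT86 are close paralogs, so the split of reads between them is uncertain. Of 26 other type I keratins 19 had 0 counts in both libraries and 3 were measured. KRT15, a basal-type keratin, had 20 and 62 counts (log2 ratio -1.04, -1.78 to -0.23), whereas KRT10, known from differentiating epidermis, had 549 and 4470 (0.36, 0.23 to 0.49) and was the only measured keratin with an interval above a ratio of 1.

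Vimentin is the intermediate filament protein of mesenchymal cells. VIM had 20788 and 63645 counts, or 3739 and 1801 CPM, a log2 ratio of -1.05 (-1.08 to -1.03). By the authors' FPKM VIM was listed at 1578 and 224, a ratio of -2.81 on the log2(FPKM + 1) scale. VIM was lower by more than the 4 keratins together. By counts there were 0.201 counts of the 4 keratins for each VIM count for control and 0.289 for CCE. That is a factor of 1.43 (1.38 to 1.49), an interval that leaves out the gap between counts and FPKM. Of the 8 measured intermediate filament genes outside the keratins, 0 were called higher and 3 lower: VIM, LMNB1, which encodes the nuclear lamina protein lamin B1 (log2 ratio -1.19, -1.45 to -0.93), and GFAP, an astrocyte filament gene at 26 and 37 counts (-2.16, -2.92 to -1.38). LMNA, of the lamina as well, had -0.53 (-0.59 to -0.48), and NES, which encodes nestin, -0.78 (-1.39 to -0.14). The median of these 8 genes was -0.77. Over all measured genes 4.36% were called higher and 4.92% lower.

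**Figure D4:**
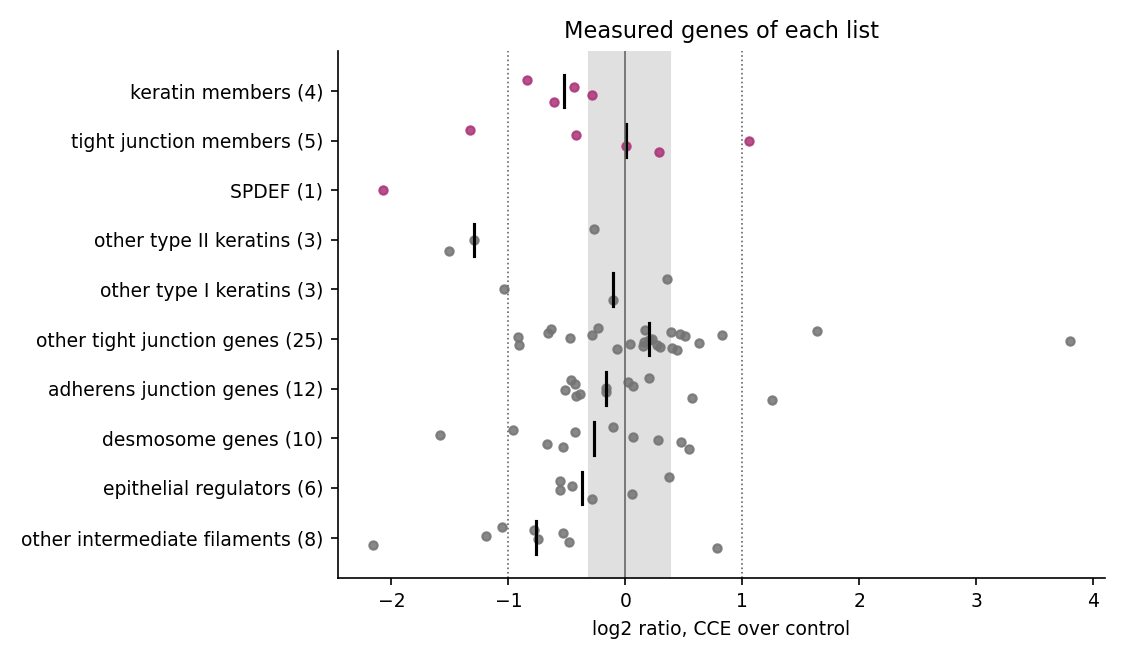
Log2 ratio of CCE over control for each measured gene of each list, the number of genes in parentheses; black bars are list medians, the grey band is the interquartile range of all measured genes and dotted lines mark 2-fold. The 4 keratins lie below 0 together with 7 of 8 other intermediate filament genes, where 46.1% of all measured genes lie below 0. The median of 25 other tight junction genes lies at 0.20, beside 0.05 over all measured genes.

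Other tight junction genes also went both ways. Of 46 such genes 25 were measured, of which 17 had a ratio above 1 and 8 below. Of these 2 were called higher and 0 lower, and the median log2 ratio was 0.20. Over all measured genes 46.1% had a ratio below 1, 4.36% were called higher, and the median log2 ratio was 0.05. CLDN15, a pore-forming claudin, had 42 and 833 counts (log2 ratio 1.64, 1.19 to 2.13). PATJ, a polarity scaffold gene, had 2 and 177 counts, a log2 ratio of 3.80 (1.93 to 6.86). At 0.360 CPM for control and 5.01 with CCE, it counted as measured only through the library where it is high. Its control level lay under the 0.540 CPM that 3 counts are worth there, so the size of its ratio is poorly known. The polarity gene PARD6A had -0.92 (-1.41 to -0.40), the scaffold gene MAGI3 -0.91 (-1.14 to -0.67), and YBX3, which encodes a partner of ZO-1, -0.07 (-0.18 to 0.04).

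Of 16 adherens junction genes 12 were measured, with 1 called higher, 0 lower and a median of -0.17. The shares over all measured genes were 4.36% higher and 4.92% lower. ARHGAP32, a GTPase-activating protein gene, had 71 and 1075 counts (log2 ratio 1.25, 0.90 to 1.62), and PVR, the poliovirus receptor gene of the nectin-like family, had 0.57 (0.47 to 0.68). NECTIN3 had -0.51 (-0.74 to -0.28), and the catenin genes CTNNB1 and CTNNA1 differed in sign, at -0.46 (-0.57 to -0.35) and 0.20 (0.14 to 0.26). VCL, which encodes the actin linker vinculin, had -0.38 (-0.47 to -0.30).

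Desmosomes anchor keratin filaments at cell contacts. Of 17 desmosome and envelope linker genes 10 were measured, with 0 called higher, 1 lower and a median of -0.27. The shares over all measured genes were 4.36% higher and 4.92% lower. The called gene was PKP3, of plakophilin 3, with 95 and 202 counts (log2 ratio -1.58, -1.94 to -1.21). JUP, of plakoglobin, had -0.96 (-1.21 to -0.70), EVPL, of envoplakin, -0.67 (-0.96 to -0.36), PLEC, of the filament linker plectin, -0.54 (-0.58 to -0.49), and DST, of dystonin, 0.55 (0.48 to 0.62).

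The log2 ratio of SPDEF (-2.07) lay below those of all 6 other measured epithelial regulators, which ran from -0.56 to 0.38. Of 19 such regulators 6 were measured, 6 others had 0 counts in both libraries, and 0 were called in either direction. KLF5 and KLF4, the most abundant of them and Krüppel-like transcription factor genes, lay at -0.56 (-0.84 to -0.28) and -0.46 (-0.62 to -0.29) on the log2 scale. The median of the 6 was -0.37, and the interval of SPDEF (-2.35 to -1.79) lay below those of both named genes. Among the 5 measured luminal markers 1 was called, AGR2, a secretory gene, at 43 and 115 counts (-1.25, -1.77 to -0.71), and it was higher with CCE by the authors' FPKM. XBP1, a transcription factor gene of secretion, had -0.19 (-0.33 to -0.05), and the median of the 5 was -0.06. Over all measured genes 9.28% were called in either direction.

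The authors' FPKM values (fragments scaled to transcript length and depth, summed over the rows of a gene) gave the same direction for all 4 keratins and for SPDEF and CLDN3. KRT18 was listed at 122 and 100.5 FPKM, KRT19 at 95.3 and 57.5, KRT8 at 81.2 and 63.3 and KRT7 at 49.4 and 36.6. SPDEF was listed at 8.42 and 3.14. CLDN3, with 1 FPKM row, was listed at 2.28 for control and at 0 for CCE despite 33 counts there. The shared direction of CLDN3 therefore rests on that listed 0. Direction was opposite for CLDN4, listed at 0 FPKM in the control despite 525 counts and at 32.0 in the CCE library. OCLN (6.21 and 4.43) and F11R (4.28 and 0.229) were lower with CCE by FPKM. On the log2(FPKM + 1) scale OCLN had -0.41 and F11R -2.10, and on the log2(FPKM + 0.1) scale F11R had -3.73. The counts and the FPKM thus share the sign, though not always the size, of the ratio for the keratins, CLDN3 and SPDEF, and differ in sign for OCLN, CLDN4 and F11R. Of the 38 genes that the naming rule took from the other lists, 22 had the same direction by FPKM at a pseudocount of 1, 11 the opposite one and 5 were listed at 0 FPKM in both libraries. KRT15, PVR, CTNNA1, JUP, EVPL, PLEC, GFAP, AGR2 and XBP1 were among the 11, and KRT81, KRT86, KRT10 and NES among the 5.

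**Figure D5:**
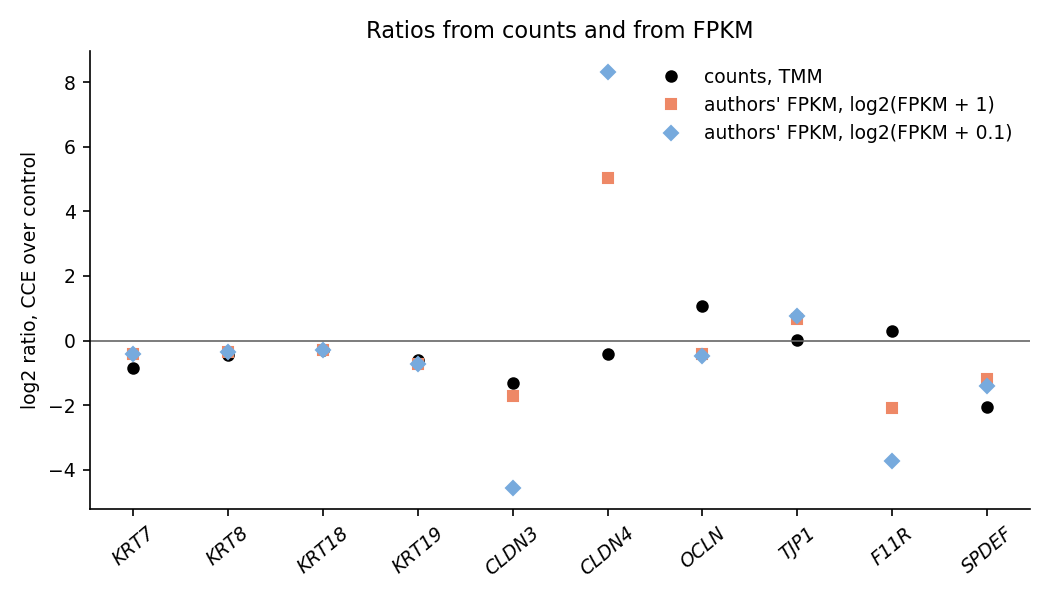
Log2 ratio of CCE over control for each gene from TMM-scaled counts (black circles) and from the authors' FPKM with a pseudocount of 1 (squares) or 0.1 (diamonds). The 4 keratins, CLDN3 and SPDEF lie below 0 by every measure plotted, while CLDN4, OCLN and F11R change sign between counts and FPKM.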

How the data were processed

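The 2 libraries were taken from the labels, 1 per group. The authors deposited raw counts per Ensembl gene ID for each library. Alignment with HISAT2 to hg19 or GRCh37 is listed per the submitters' processing notes; no source used here names the counting program, its strand setting or the annotation release. Per the file headers the second kind of table holds FPKM; its 215170 rows repeat gene IDs and were summed per gene, and its depth is unknown. The 5 rows that name no gene (62.9% of control and 66.8% of CCE records) were left out.

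Symbols, positions and exon lengths came from GENCODE release 44 lifted to GRCh37 (55665 IDs found). Libraries were scaled with TMM (edgeR 4.0.16, R 4.3.3); ratios carry no pseudocount. Intervals came from scipy 1.17.1. They cover counting error only, since each group has 1 library, and p-values were not computed. The intervals treat reads as independent, which PCR copies of a molecule are not. On simulated Poisson counts for CCE against control, over 14424 genes, intervals held the true ratio in 95.8%. Of 14224 unaltered genes 60 were called. Such counts follow the model that the intervals assume, so this checks the calculation and not PCR copies or spread between cultures. Alternatives were scaling by DESeq2 1.42.0, by upper quartile or by total count, FPKM, pseudocounts, filters, thresholds, pseudogene sums and exon overlap; the KRT7-AS sum, the canonical length and the background at 100 control counts were chosen after seeing the data. Members and lists were chosen with earlier results of these data known (202 of 204 symbols matched). Named genes are all members and, per list, up to 4 of the largest ratios with an interval excluding 1 and the 2 most abundant; CDH1 and markers at 0 were named after their values were seen. The cell type lists are given as sums, with VIM, AGR2, XBP1, MYLK and HBB. Some genes that meet the rule are not reported here.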

Additional observations from a re-analysis of the deposited data

How the results depend on the processing

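Scaling by total count, upper quartile or DESeq2 kept the call of all 3 called members and the sign of all members except TJP1; they shifted log2 ratios by 0.04, -0.04 and 0.00, and OCLN stayed between 1.01 and 1.09. By log2(FPKM + 1) and then log2(FPKM + 0.1), CLDN4 reversed to 5.04 and 8.33 and OCLN to -0.41 and -0.48; the cause was not tested. The count of members past 2-fold was then 4 (CLDN4 higher, and CLDN3, F11R and SPDEF lower), not the same genes. FPKM values carry no counting interval here, so these calls rest on the ratio alone. Of the 82 measured genes in the other lists 22 and 33 passed, in place of 12 by counts. By counts 9.28% of all measured genes were called, and the share by FPKM was not computed. On the log2(CPM + 1) scale 0 members were called higher and 1 lower, 1 in all, since a pseudocount shrinks the ratios of low genes. A mean of at least 5 CPM left 1 member lower, because CLDN3 was removed. At a 1.5-fold threshold 4 members were lower, 5 called in all, and 27 of the 82 measured genes of the other lists were called. Of all measured genes 12.1% were called higher and 11.3% lower at that threshold. By canonical transcript length the highest and lowest members differed 162-fold per length in the CCE library, in place of 74.6-fold. No paired analysis was possible because each group has 1 library. Depth limits CLDN3 (13 control counts) and OCLN (23) most.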
